A study of Mus musculus with 5 samples.

Results

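The genes described here encode the enzymes with which macrophages break down arginine, make itaconate and degrade tryptophan and related amino acids: Nos2, Arg1, Arg2, Ass1, Asl, Odc1, Acod1, Ido1 and Il4i1. All 9 were found by symbol among the 24982 gene rows of the authors' deposited Cuffdiff table, 8 of them in a row of their own and Il4i1 in a row shared with 2 other symbols. The MEK1-hi group is 3 libraries of macrophages from tumors of the 9609 MEK1-hi line, genotype MEK1-hi, with MEK1-hi exosomes (vesicles shed by cells) as the treatment. The MEK1-low group is 2 libraries of macrophages from tumors of the 9609 MEK1-low line, genotype MEK1-low, with MEK1-low exosomes that carry the note GFP as the treatment. Both groups come from 1 mouse tumor model, an MCA fibrosarcoma, and both received exosomes, so neither is an untreated control. Tumor line, genotype and exosome treatment differ together between the groups, so their parts cannot be told apart. The terms MEK1-hi and MEK1-low macrophages below name the group alone. The labels give no mouse strain, age or time of harvest, do not say how the macrophages were isolated, and leave unsaid which libraries share an animal. The p-values thus measure the spread between these libraries alone, which may be technical.

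The table holds 1 pooled FPKM value per group and gene (fragments per kilobase of transcript, scaled to library size, so levels of different genes can be set side by side) and no value per library. No SD can be given, and the measure of error is the q value of Cuffdiff, the authors' p adjusted over 12311 tested rows. Genes are called at a q of 0.05. Missing that threshold does not show that a gene was at 1 level in both.

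Macrophages can spend arginine in competing ways. Inducible nitric oxide synthase, encoded by Nos2, turns it into nitric oxide and citrulline, and interferon-gamma together with microbial signals is its classical inducer in mouse macrophages. Arginase, encoded by Arg1 (cytosolic) and Arg2 (mitochondrial), turns it into urea and ornithine, and interleukin-4 is a classical inducer of Arg1. Itaconate is made from a citrate cycle intermediate by the Acod1 product and slows succinate dehydrogenase, while Ido1 and Il4i1 encode enzymes that consume tryptophan and, for Il4i1, also phenylalanine.

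Of the 8 members that Cuffdiff tested, Nos2 and Acod1 were called higher in MEK1-hi macrophages and Arg1 was called lower. The other 5 tested rows, those of Arg2, Ass1, Asl, Odc1 and the shared row of Il4i1, were not called. Among all tested rows of the authors' deposited table, 0.999% were called higher and 0.325% lower, 1.32% in either direction. The members were chosen with results of these data known, so their larger share of calls is a description. Their median log2 fold change was 0.01, against -0.02 over all tested rows, and the called members moved in opposite directions. Scaling both groups to equal FPKM sums would lower every log2 fold change by 0.13, which brings these medians to -0.12 and -0.15 and is smaller than any difference that was called.

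**Figure D1:**
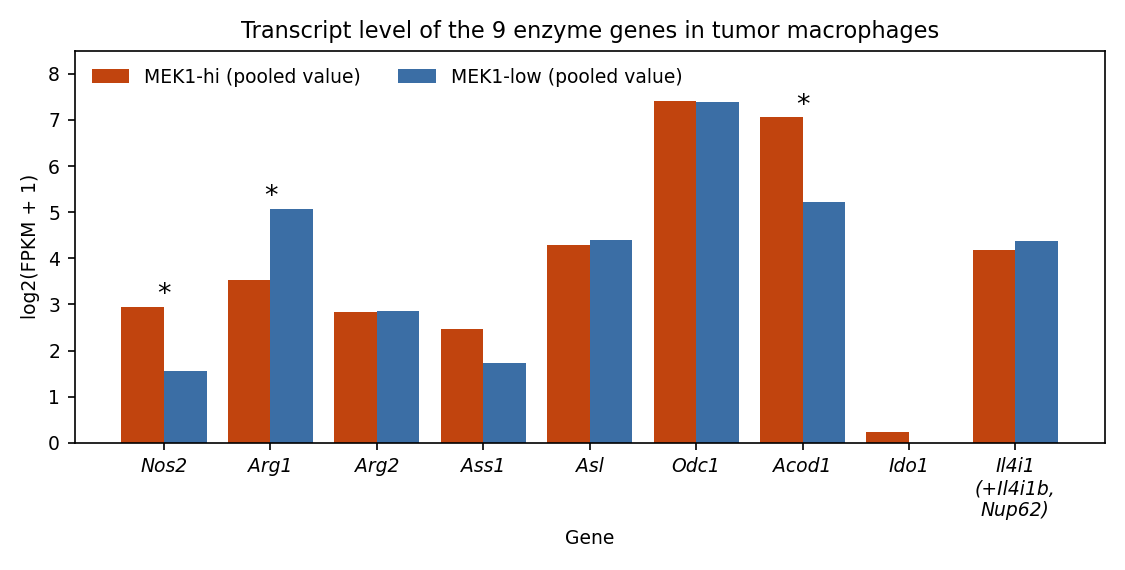
Level of each of the 9 genes, as log2(FPKM + 1), with the MEK1-hi group in orange and the MEK1-low group in blue. Each bar is the authors' 1 pooled value per group, so there are no error bars, and stars mark the genes called by Cuffdiff at a q of 0.05: Nos2 and Acod1 stand higher in MEK1-hi, Arg1 stands lower, and the bars of Arg2, Asl and Odc1 are nearly level.

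Nos2 rose and Arg1 fell. In the authors' deposited table, Nos2 (mm10 chromosome 11, 78920787 to 78960226, plus strand, 27 exons in its longest annotated transcript) had 6.73 FPKM in MEK1-hi and 1.95 FPKM in MEK1-low macrophages. That is a log2 fold change of 1.79, with a deposited statistic of 3.45 and a Cuffdiff q of 0.00676 in the authors' deposited table. Even in the group where it was higher, Nos2 was below the median level. In MEK1-hi it exceeded 36.0% of the 11350 tested genes with an FPKM of at least 1 in a group and above 0 in both. In MEK1-low it exceeded 9.67% of them. Its log2 fold change was the 41st highest among these genes.

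Arg1 (chromosome 10, 24915207 to 24927470, minus strand, 8 exons) had 10.6 FPKM in MEK1-hi and 32.8 FPKM in MEK1-low macrophages in the authors' deposited table. Its log2 fold change was -1.62, with a deposited statistic of -3.58 and the same Cuffdiff q of 0.00676, in the authors' deposited table. It was the 19th lowest log2 fold change among the same genes. Arg1 stood above 48.4% of them in MEK1-hi and above 78.8% in MEK1-low.

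Set against each other, the transcripts of the competing enzymes drew closer in MEK1-hi. Nos2 had 0.633 FPKM for each FPKM of Arg1 in MEK1-hi, against 0.0595 in MEK1-low, a 10.7-fold higher ratio (3.41 on the log2 scale). Arg1 thus exceeded Nos2 in both groups, by 1.58-fold in MEK1-hi and by 16.8-fold in MEK1-low. The ratio of ratios is computed from 4 pooled values and has no test or error of its own.

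The calls of Nos2 and Arg1 depend on how Cuffdiff's p was obtained. Their p in the authors' deposited table is 5e-05, the smallest value there and shared by 91 rows. A normal distribution of the Cuffdiff statistic in the authors' deposited table gave Nos2 an adjusted p of 0.197 and Arg1 one of 0.143, so that neither was called, whereas Acod1 was (adjusted p = 0.00408). By that reading 0.106% of rows were called higher and 0.0163% lower. Under the Benjamini-Yekutieli adjustment of Cuffdiff's p, which allows for any dependence between genes, Nos2, Arg1 and Acod1 each had an adjusted p of 0.0676, and 0 of the 12311 rows were called. The 3 calls held at a q of 0.01 (0.552% of rows called higher, 0.187% lower), at a q of 0.10 (1.17% and 0.439%), with a fold of at least 2 as well (0.82% and 0.301%) and with adjustment over rows with an FPKM of at least 1 (1.15% and 0.37%).

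Arg2, the mitochondrial arginase, was not called. The authors' deposited table gives it 6.19 FPKM in MEK1-hi and 6.26 FPKM in MEK1-low macrophages, a log2 fold change of -0.02 (Cuffdiff q = 0.9998). The summed level of both arginase transcripts was 16.8 FPKM in MEK1-hi and 39.0 FPKM in MEK1-low macrophages. Arg1 made up 63.2% of that sum in MEK1-hi and 84.0% in MEK1-low. Against the sum, Nos2 reached 0.400 in MEK1-hi and 0.0499 in MEK1-low, an 8.02-fold higher ratio. Arg2's locus in the table (chromosome 12, 79130788 to 79172458) runs past the annotated end of the gene at 79156301 and overlaps Vti1b on the opposite strand. The strand setting of the authors' counting is not given in the sources used here, so reads from the overlap cannot be told apart.

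Ass1 and Asl encode the enzymes that rebuild arginine from the citrulline that nitric oxide synthase releases. In the authors' deposited table, Ass1 (chromosome 2, 31470270 to 31520670) had 4.51 FPKM in MEK1-hi and 2.30 FPKM in MEK1-low macrophages, a log2 fold change of 0.97. Its unadjusted p of 0.023 did not survive adjustment (Cuffdiff q = 0.552, the authors' deposited table). Of all tested rows, 3.5% were higher and 2.58% lower with an unadjusted p under 0.05. Asl (chromosome 5, 130011258 to 130024381) had 18.6 FPKM in MEK1-hi and 20.2 FPKM in MEK1-low in the authors' deposited table, a log2 fold change of -0.12 (Cuffdiff q = 0.9998). The earlier enzyme of the recycling pair was therefore the scarcer transcript in both groups, and neither was called. One annotated pseudogene, Gm5424, matches the Ass1 transcript at 99.5% over 1240 bases, so the level of Ass1 is uncertain.

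Odc1 encodes ornithine decarboxylase, the enzyme that takes the ornithine released by arginase into polyamines. It was the most abundant of the 9 transcripts in both groups, with 170 FPKM in MEK1-hi and 166 FPKM in MEK1-low macrophages in the authors' deposited table. The log2 fold change was 0.04 (Cuffdiff q = 0.9998, the authors' deposited table) and -0.10 when both groups were scaled to equal FPKM sums. While the levels of Odc1 and Arg2 were close in both groups, that of Arg1 was not. For each FPKM of Arg1 and Arg2 together there were 10.1 FPKM of Odc1 in MEK1-hi and 4.26 in MEK1-low. The annotation holds 13 other genes, most of them named as predicted genes, whose transcripts match Odc1 at 90% or more over at least 300 bases, so its level is uncertain too.

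Acod1 (chromosome 14, 103047012 to 103056573, plus strand, 5 exons) showed the largest log2 fold change among the 8 tested members. It had 132 FPKM in MEK1-hi and 36.5 FPKM in MEK1-low macrophages in the authors' deposited table. The log2 fold change was 1.85, with a deposited statistic of 4.89 and a Cuffdiff q of 0.00676 in the authors' deposited table. This placed it 34th from the highest of the 11350 genes ranked, and 75th by the gain in FPKM. In MEK1-hi it stood above 95.0% of these genes, so that, unlike Nos2, Acod1 was an abundant transcript.

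Acod1 and Nos2 differed between the groups by similar factors, 3.61-fold and 3.46-fold. There were 19.6 FPKM of Acod1 for each FPKM of Nos2 in MEK1-hi and 18.8 in MEK1-low, and the difference between these ratios was not tested. Against Arg1, Acod1 stood at 12.4 in MEK1-hi and 1.12 in MEK1-low. The itaconate enzyme's transcript thus stood far above that of the arginase in MEK1-hi macrophages and near it in MEK1-low.

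The order of the 9 levels restates the same pooled values, with Arg1 above Nos2 in both groups. In MEK1-hi it ran Odc1, Acod1, Asl, the shared row of Il4i1, Arg1, Nos2, Arg2, Ass1 and Ido1, and in MEK1-low Odc1, Acod1, Arg1, Asl, the shared row of Il4i1, Arg2, Ass1, Nos2 and Ido1. With no value per library, which neighbours in this order differ beyond their spread cannot be said.

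**Figure D2:**
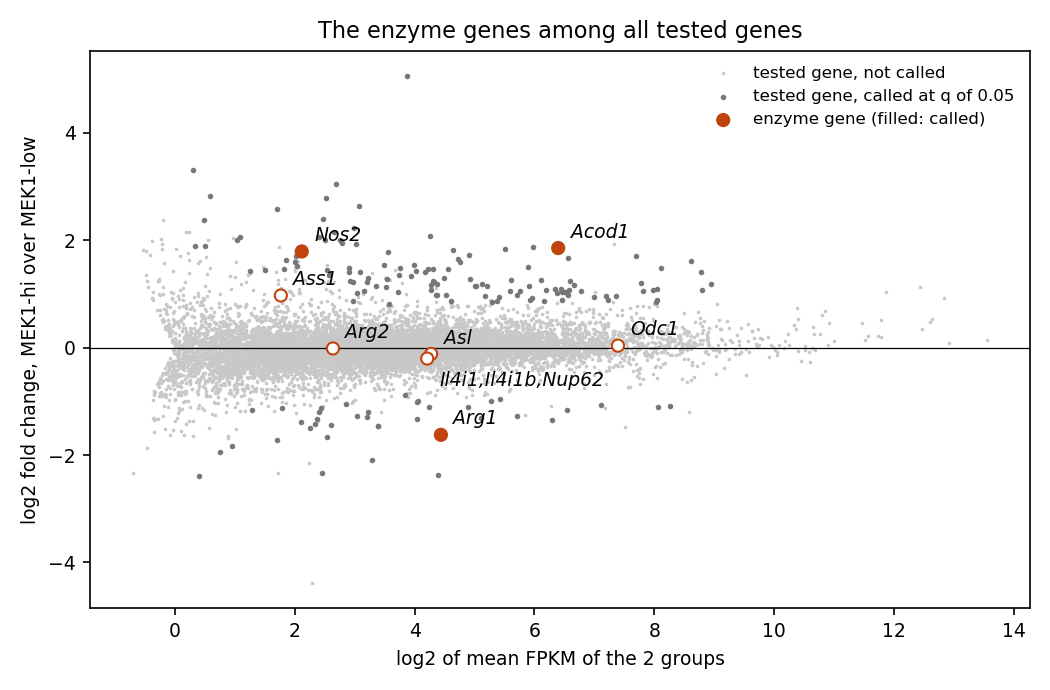
Each point is 1 of the 11350 tested genes with an FPKM of at least 1 in a group and above 0 in both, by the log2 of its mean FPKM over the groups (horizontal) and its log2 fold change, MEK1-hi over MEK1-low (vertical). Orange circles are the 8 tested enzyme genes, filled where called: Acod1 (1.85) and Nos2 (1.79) lie above the cloud and Arg1 (-1.62) below it, while Arg2, Asl, Odc1 and the shared row of Il4i1 lie within it.

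Ido1 was close to absent from both groups. The authors' deposited table lists it at 0.182 FPKM in MEK1-hi and at 0 in MEK1-low macrophages (chromosome 8, 24584133 to 24596952), and Cuffdiff did not test it, so no fold is given. Ido1 is a textbook interferon-gamma target in human cells. The related genes Ido2 and Tdo2, which encode the other enzymes that open the tryptophan ring, were also not tested. Ido2 had 0.0162 FPKM in MEK1-hi and 0.00826 FPKM in MEK1-low in the authors' deposited table. Tdo2 had 0.0807 FPKM in MEK1-hi and was listed at 0 in MEK1-low in the authors' deposited table.

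The Il4i1 value cannot be read as Il4i1 alone. Its row carries the symbols Il4i1, Il4i1b and Nup62 and spans chromosome 7 from 44812256 to 44849079, and Nup62 encodes a nuclear pore protein that cells make in general. The row had 17.2 FPKM in MEK1-hi and 19.8 FPKM in MEK1-low macrophages in the authors' deposited table, a log2 fold change of -0.20 (Cuffdiff q = 0.9998). The row is counted among the 8 tested rows above, but its value does not give the level of Il4i1 alone.

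The promoter sequences of 3 members are shown, picked by the fold changes given above. Acod1 was called higher, Ass1 was higher without a call, and Odc1 was nearly level. Being picked this way, they are no separate evidence on these differences. Of the 9 members, 4 had an entry in the RefSeq promoter table used (GRCm38.p6), those of Acod1, Ass1, Odc1 and Il4i1. Nos2 and Arg1 had none. The lines give the 250 bases before each annotated start, on the plus strand, with every match to a searched motif in capitals. The windows are chr14:103046762-103047011 for Acod1, chr2:31470020-31470269 for Ass1 and chr12:17544623-17544872 for Odc1.
Acod1: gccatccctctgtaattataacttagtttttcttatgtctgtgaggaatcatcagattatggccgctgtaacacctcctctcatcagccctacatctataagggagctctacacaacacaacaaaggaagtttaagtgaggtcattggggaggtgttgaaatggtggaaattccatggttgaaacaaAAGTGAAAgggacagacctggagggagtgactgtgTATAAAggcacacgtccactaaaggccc
Ass1: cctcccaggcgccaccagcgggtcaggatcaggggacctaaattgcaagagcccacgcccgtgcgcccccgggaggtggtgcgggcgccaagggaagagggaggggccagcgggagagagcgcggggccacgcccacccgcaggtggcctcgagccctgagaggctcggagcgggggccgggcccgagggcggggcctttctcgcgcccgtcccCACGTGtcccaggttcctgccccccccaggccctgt
Odc1: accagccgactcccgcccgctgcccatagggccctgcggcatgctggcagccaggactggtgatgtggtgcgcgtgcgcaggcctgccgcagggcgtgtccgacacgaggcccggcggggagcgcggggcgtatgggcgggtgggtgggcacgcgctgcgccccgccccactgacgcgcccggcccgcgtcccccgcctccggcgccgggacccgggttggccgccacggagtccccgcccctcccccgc

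The Acod1 window held 1 match to AANNGAAA, the core bound by interferon regulatory factors, at 63 to 56 bases before the start, and 1 match to the TATA box TATAAA at 28 to 23 bases before it. Of 32851 promoter windows of the same length, 21.3% held the first motif and 12.4% the second, searched on both strands. The Ass1 window held 1 match to the E-box CACGTG, which 6.02% of windows held. No match in these windows overlapped another. The Odc1 and Il4i1 windows held 0 matches to any searched motif. The others searched were TTGCNNAA (C/EBP, in 9.56% of windows), TGANTCA (AP-1, 6.75%) and the NF-kB consensus (3.9%). The windows also differed in base composition, with 44.4% G and C in Acod1, 75.6% in Ass1 and 80.0% in Odc1. A match is a stretch of letters and does not show that a factor binds there.

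Around the 9 enzymes, 85 tested genes of transport, cofactor supply and neighbouring metabolic steps were counted, and Cuffdiff called 0 of them, against 1.32% of all tested rows. At an unadjusted p under 0.05, 1 was higher and 4 lower. Of the 85, 31 had the higher value in MEK1-hi and 54 the lower, with a median log2 fold change of -0.08. After scaling to equal FPKM sums these were 16 and 69, with a median of -0.21. Over all 12311 tested rows, 5688 had the higher value in MEK1-hi and 6623 the lower, or 3337 and 8969 after that scaling. The summed level of these lists was 4197 FPKM in MEK1-hi and 4274 FPKM in MEK1-low macrophages. At the share called over all tested rows, few calls are to be found among 85 genes. The 0 calls are therefore a description and do not show that these genes were level.

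Transporters of arginine and other amino acids had 0 of 9 tested genes called, and 6 of 9 had the lower value in MEK1-hi (median log2 fold change -0.28). The list was not limited to carriers that bring amino acids into the cell, so it does not measure uptake. Slc7a2, the arginine carrier that macrophages induce on activation, had 3.54 FPKM in MEK1-hi and 6.18 FPKM in MEK1-low in the authors' deposited table, with an unadjusted p of 0.0033 and a Cuffdiff q of 0.167. Slc7a5, a subunit of the large neutral amino acid carrier that takes up tryptophan, had 25.4 FPKM in MEK1-hi and 38.3 FPKM in MEK1-low in the authors' deposited table (p = 0.0131 before adjustment, Cuffdiff q = 0.383). Its partner subunit Slc3a2 was the most abundant of the list, with 338 FPKM in MEK1-hi and 303 FPKM in MEK1-low in the authors' deposited table. Slc7a1, the constitutive arginine carrier, had a log2 fold change of -0.38, and Slc7a8, a neutral amino acid carrier, one of -0.28.

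Nitric oxide handling had 0 of 8 tested genes called. Nos1 and Nos3, the neuronal and endothelial synthases, were not tested, and the largest value of either in a group was 0.184 FPKM for Nos3 in MEK1-hi in the authors' deposited table, so Nos2 was the most abundant of the synthase transcripts in both groups. Ddah1, which removes a methylated arginine that inhibits the synthases, had 3.37 FPKM in MEK1-hi and 5.68 FPKM in MEK1-low (p = 0.0204 before adjustment, Cuffdiff q = 0.512, the authors' deposited table). Prmt1, which makes methylated arginine in proteins, had 99.5 FPKM in MEK1-hi and 122 FPKM in MEK1-low in the authors' deposited table. Ddah2 and the reductase gene Cyb5r3 had log2 fold changes of -0.33 and -0.26.

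Synthesis of tetrahydrobiopterin, the cofactor without which nitric oxide synthase makes no nitric oxide, had 0 of 7 tested genes called. Gch1, the rate-limiting enzyme, had 17.2 FPKM in MEK1-hi and 14.7 FPKM in MEK1-low in the authors' deposited table, and Pts, the next enzyme, 21.2 FPKM in MEK1-hi and 17.8 FPKM in MEK1-low. Gchfr, the feedback inhibitor of Gch1, had the lowest log2 fold change of the 85 genes, -1.88, at 0.311 FPKM in MEK1-hi and 1.14 FPKM in MEK1-low (p = 0.0466 before adjustment, Cuffdiff q = 0.795, the authors' deposited table). Both of its levels are low. Qdpr and Pcbd2, which recycle the cofactor, were at log2 fold changes of 0.04 and 0.12.

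Other routes of arginine and ornithine showed no calls either. Of 11 tested genes of the urea cycle, proline and creatine routes, 0 were called, and the liver genes Cps1 and Otc were at or near 0. Gatm, which uses arginine for creatine, had 160 FPKM in MEK1-hi and 162 FPKM in MEK1-low in the authors' deposited table. Glud1, in a row shared with Gm3219, had a log2 fold change of 0.12. Aldh18a1, Pycr1 and Prodh, enzymes of proline synthesis and breakdown, had -0.35, -0.28 and -0.50.

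Polyamine genes, which follow Odc1, had 0 of 15 tested members called (median log2 fold change -0.09). Sat1, which acetylates polyamines for export or breakdown, had 414 FPKM in MEK1-hi and 334 FPKM in MEK1-low in the authors' deposited table. Eif5a, the protein that carries the polyamine-derived residue hypusine, had 525 FPKM in MEK1-hi and 555 FPKM in MEK1-low in the authors' deposited table. Srm, spermidine synthase, and Mtap, which salvages a by-product of polyamine synthesis, had log2 fold changes of -0.22 and -0.32.

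The citrate cycle, from which Acod1 draws its substrate, had 0 of 24 tested genes called, and 19 of 24 had the lower value in MEK1-hi (median log2 fold change -0.09, range -0.40 to 0.18). Sdhb, a subunit of the succinate dehydrogenase that itaconate inhibits, had 141 FPKM in MEK1-hi and 127 FPKM in MEK1-low in the authors' deposited table. Idh2 had the lowest log2 fold change of the list, -0.40, and Mdh2, the most abundant member, -0.15. Idh1 and Acly, which act on isocitrate and citrate in the cytosol, had -0.26 and -0.20.

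Tryptophan and kynurenine genes had 0 of 11 tested members called, with 9 of 11 at the higher value in MEK1-hi (median log2 fold change 0.13, or 6 of 11 and 0.00 after scaling to equal FPKM sums). Haao, which acts late in the pathway towards NAD, had 6.35 FPKM in MEK1-hi and 2.65 FPKM in MEK1-low (p = 0.00745 before adjustment, Cuffdiff q = 0.274, the authors' deposited table). Kynu and Kmo, the kynureninase and the kynurenine hydroxylase, had log2 fold changes of 0.77 and 0.41. Wars, which charges tryptophan onto its transfer RNA, had 28.2 FPKM in MEK1-hi and 24.0 FPKM in MEK1-low in the authors' deposited table, and Tiparp, a target of the receptor for kynurenine, had 57.6 FPKM in MEK1-hi and 54.7 FPKM in MEK1-low. The later enzymes Qprt, Aadat and Acmsd were, like Ido1, Ido2 and Tdo2, at 0.255 FPKM or less in both groups and not tested.

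**Figure D3:**
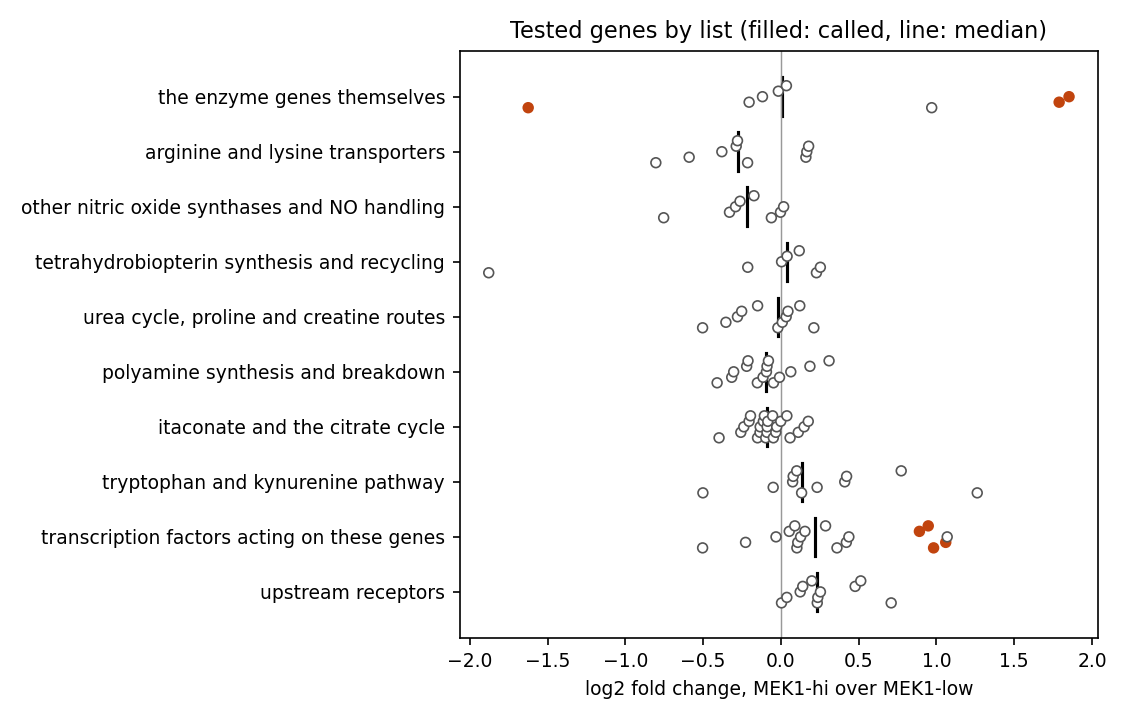
Log2 fold change, MEK1-hi over MEK1-low, of every tested gene in each list, 1 circle a gene, filled where Cuffdiff called it at a q of 0.05, with a line at the median of the list. The called circles are 3 of the enzyme genes and 4 transcription factors, and the medians of the other lists lie between -0.28 and 0.23. Vertical jitter within a list carries no meaning.

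Among transcription factors known to act on these genes, 4 of 18 tested were called higher and 0 lower (median log2 fold change 0.22). Over all tested rows, 0.999% were called higher and 0.325% lower. Irf1, an interferon-induced activator of Nos2, had 305 FPKM in MEK1-hi and 146 FPKM in MEK1-low macrophages (Cuffdiff q = 0.0163, the authors' deposited table). Cebpb, an activator that has been tied to both Nos2 and Arg1, had 125 FPKM in MEK1-hi and 63.4 FPKM in MEK1-low (Cuffdiff q = 0.00676, the authors' deposited table). Irf8, a myeloid partner of Irf1, rose 1.85-fold (Cuffdiff q = 0.0344, the authors' deposited table). Of the 4 called, Cebpb was the 1 still called at a q of 0.01, and 0 were called with the normal distribution.

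Stat6 and Il4ra, 2 genes of interleukin-4 signalling, were not called, and the part of interleukin-4 in the Arg1 result was not tested. Stat6, the factor through which interleukin-4 induces Arg1, had 48.7 FPKM in MEK1-hi and 45.7 FPKM in MEK1-low in the authors' deposited table (Cuffdiff q = 0.9998). The receptor gene Il4ra had 82.7 FPKM in MEK1-hi and 72.1 FPKM in MEK1-low there (Cuffdiff q = 0.9998, the authors' deposited table). Pparg, another factor of the list, had 8.99 FPKM in MEK1-hi and 4.29 FPKM in MEK1-low in the authors' deposited table. Its Cuffdiff p before adjustment was 0.0035 and its Cuffdiff q 0.173. Stat6, Il4ra and Pparg were chosen after their values were seen. Transcript levels do not measure the activity of a signalling protein. Myc and Nfe2l2, the most abundant factors of the list, had log2 fold changes of 0.13 and 0.29.

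Of 11 upstream receptors, 0 were called, although all 11 had the higher value in MEK1-hi (median log2 fold change 0.23). After scaling to equal FPKM sums 8 of 11 did (median 0.10). Over all tested rows, 5688 of 12311 had the higher value in MEK1-hi, or 3337 after that scaling. Csf2ra, a chain of the receptor for GM-CSF, had 189 FPKM in MEK1-hi and 116 FPKM in MEK1-low (p = 0.00375 before adjustment, Cuffdiff q = 0.179, the authors' deposited table). Il10ra and Tnfrsf1a had log2 fold changes of 0.51 and 0.48, and Tlr2, the most abundant receptor, 0.23.

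Markers of the labelled cell type were abundant. Of 12 macrophage markers 0 were called, and their summed level was 20349 FPKM in MEK1-hi and 17684 FPKM in MEK1-low, led by Lyz2 and C1qa. In bulk RNA, fewer cells of a type and less RNA per cell cannot be told apart. Fibroblast and tumor markers were also present, at 1392 FPKM in MEK1-hi and 2328 FPKM in MEK1-low, all 12 at the lower value in MEK1-hi. Of the 12, 3 were called lower (Col6a3, Thy1, Col5a1), against 0.325% of all tested rows. The direction of this list was that of Arg1, and its part in the result was not tested. Monocyte markers had 4 of 10 called higher (Ly6c2, Plac8, Ace and Treml4), against 0.999% of all tested rows. Of the 10, 8 had the higher value in MEK1-hi and 2 the lower, Vcan (log2 fold change -0.72) and Cx3cr1 (-0.10). The summed level of the list was 852 FPKM in MEK1-hi and 668 FPKM in MEK1-low. The part of monocytes in the rise of Nos2 and Acod1 was not tested.

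The remaining marker lists had lower sums than those above. Such sums do not give the amount of a cell type. Neutrophils also make Acod1 and Arg1, and their 10 markers summed to 63.6 FPKM in MEK1-hi and 56.6 FPKM in MEK1-low. Most of that sum was Csf3r, with 36.6 FPKM in MEK1-hi and 26.2 FPKM in MEK1-low in the authors' deposited table, and S100a8 and S100a9. S100a8 had 14.2 FPKM in MEK1-hi and 13.3 FPKM in MEK1-low, and S100a9 had 11.9 FPKM in MEK1-hi and 15.1 FPKM in MEK1-low, in the authors' deposited table. Retnlg had 0.205 FPKM in MEK1-hi and 1.03 FPKM in MEK1-low there, and the other 6 markers, Ly6g, Cxcr2, Mmp8, Ngp, Camp and Mpo, were at 0.341 FPKM or less in both groups. Of the 4 tested neutrophil markers 0 were called, and the part of these cells in the Acod1 and Arg1 results was not tested. Dendritic cell markers summed to 121 FPKM in MEK1-hi and 122 FPKM in MEK1-low. Of the 10, 2 were called higher (Clec9a and Xcr1), against 0.999% of all tested rows, and 0 were called lower. The value was higher in MEK1-hi for 7 and lower for 3, Cd209a (log2 fold change -1.06), Ccl22 (-0.52) and Fscn1 (-0.45). Markers of T, NK and B cells summed to 14.5 FPKM in MEK1-hi and 6.83 FPKM in MEK1-low with 0 called. All 5 tested had the higher value in MEK1-hi (median log2 fold change 1.25). Of these, 3 had an unadjusted Cuffdiff p under 0.05, against 3.5% of all tested rows. The part of these cells in the results was not tested. Markers of eosinophils and mast cells summed to 11.8 FPKM in MEK1-hi and 5.20 FPKM in MEK1-low, most of it Kit, which was called higher. The mast cell markers Cpa3 and Mcpt4 were not tested and had the lower value in MEK1-hi. Cpa3 had 0.0239 FPKM in MEK1-hi and 0.149 FPKM in MEK1-low, and Mcpt4 had 0.0849 FPKM in MEK1-hi and 0.0884 FPKM in MEK1-low. The eosinophil markers Epx and Il5ra were at 0.00624 FPKM or less in both groups. Endothelial markers summed to 10.7 FPKM in MEK1-hi and 9.89 FPKM in MEK1-low with 0 called.

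**Figure D4:**
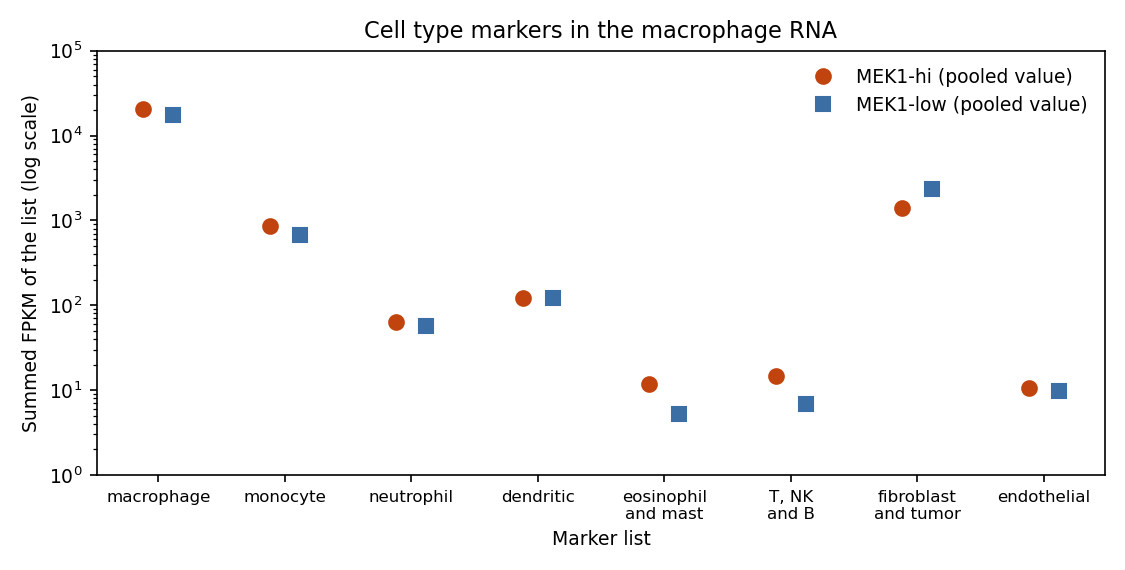
Summed FPKM of each list of cell type markers on a log axis, with the MEK1-hi group as orange circles and the MEK1-low group as blue squares, 1 pooled value per group. Macrophage markers lead in both groups (20349 FPKM in MEK1-hi, 17684 FPKM in MEK1-low), and the fibroblast and tumor list stands lower in MEK1-hi (1392 FPKM, against 2328 FPKM in MEK1-low).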

How the data were processed

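The measurements are RNA-seq of mouse tumor macrophages. Per the labels' protocols, stranded poly(A) libraries were prepared from 750 ng of TRIzol RNA (integrity number over 8.0) and read as 100-base pairs, about 25000000 planned per library. FastQC 0.73, TopHat, Cufflinks, Cuffdiff and mm10 are named in the submitters' processing notes, with no role or order. Neither the annotation nor the strand setting is stated there.

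The authors deposited 1 Cuffdiff table with pooled FPKM values, a test statistic (a score), p-value and q-value columns. Adjusting the p values by Benjamini-Hochberg over the 12311 tested rows gave the same q to within rounding. The log2 fold change column deposited by the authors held 515 cells of error text, so log2 fold changes were computed here from FPKM. FPKM values are not counts, and low values did not give whole reads for most genes: with the step chosen to fit best, 20.5% of low values in MEK1-hi and 34.0% in MEK1-low lay within 0.05 of a whole multiple, against 10% for uniform values. Depth is therefore unknown and no interval or floor is given.

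Members and gene lists were chosen with earlier results of these data known. The lists held 136 pathway symbols and 79 markers, of which 2 were not found and 2 were updated through RefSeq synonyms. Named are all members, each list's called genes, up to 3 with the largest absolute statistic and the 2 most abundant, and for markers the called and most abundant ones. Other names serve background, show list members at the lower value, or are said to be chosen later. Some items are not reported here. The adjustment was tested on simulated data. Near-identical copies were sought with BLAST in GENCODE M21 transcripts. Loci are the authors' mm10 loci, 1-based. Alternatives changed the threshold, adjustment, source of p, filter, pseudocount and scaling. The tools were matplotlib 3.10.9, scipy 1.17.1, pandas 2.3.3, numpy 2.4.6 and Python 3.11.15.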

Additional observations from a re-analysis of the deposited data

How the results depend on the processing

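The 2 members called higher became 0 under the Benjamini-Yekutieli adjustment and 1 (Acod1) with a p from a normal distribution of the deposited statistic, and the 1 called lower, Arg1, became 0 under both. Both counts were the same at a q of 0.01 or 0.10, with a fold of at least 2 and with adjustment over genes with an FPKM of at least 1. At an unadjusted p under 0.05, 3 members were higher and 1 lower. The 4 pathway genes called higher became 1 at a q of 0.01, 1 with a fold of at least 2, 0 under the Benjamini-Yekutieli adjustment and 0 with the normal p, and 9 at an unadjusted p under 0.05, where the 0 called lower became 4. The log2 ratio of Nos2 to Arg1, 3.41, was 3.35 with a pseudocount of 0.1 and 2.93 with 1. Scaling to equal FPKM sums lowers every log2 fold change by 0.13 and turned Odc1 to -0.10, and scaling to a median of 0 turned Arg2 to 0.0045. The other members kept their direction under each pseudocount and scaling. Under them Nos2 stayed between 1.39 and 1.81 and Arg1 between -1.76 and -1.54. Leaving out each library was not run, since the table has no values per library. No paired analysis was possible because the columns carry no replicate. Cuffdiff's p is smaller than the normal p in 99.7% of tested rows, and why was not tested.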
